A study of Mus musculus with 6 samples.

Results

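Laminins, fibulins and other non-collagen glycoproteins of the extracellular matrix were measured in gonadal primordium epithelium of mouse fetuses with and without the homeobox gene Emx2. The 39 genes were chosen by name, and every probe set whose annotated gene symbol was exactly one of them was taken. Of the 39, 38 had at least 1 probe set and Fbn1 had none under that rule. The 38 were among 18194 genes on the array and held 83 of its 45101 probe sets. A filter on dim probe sets left 63 of these 83 for testing, from 35 genes, and all probe sets of Lama3, Lamb3 and Thbs1 fell below it. The rule used gene names alone, but the members were chosen with earlier results of these data known.

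The samples were pools of epithelial cells cut by laser microdissection from frozen, unfixed fetuses at E10.5, each from 3 fetuses. The wild-type (+/+) group and the Emx2 KO (-/-) group had 3 pools each, and each pool went to a single array. The sources used here give no strain, no form of the Emx2 allele and no sex or litter of the fetuses, and p-values measure only the spread between pools. Intensities are the deposited values scaled to a common trimmed mean per array, in arbitrary units. A difference is given as log2 fold change (KO minus wild-type) with its standard error (SE) and an adjusted p from limma's test over all 27022 tested probe sets, the threshold being 0.05. Where 3 values stand against 3, the wild-type pools come first, each group in the order of its replicate numbers, and the first signed or unsigned value inside parentheses is the log2 fold change. Levels of different probe sets cannot be compared with each other.

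An epithelium rests on a basement membrane, a sheet in which heterotrimeric laminins and type IV collagen form networks that nidogens and the proteoglycans perlecan and agrin join together. Integrins and dystroglycan tie the basal cell surface to the laminins. The interstitial matrix of the mesenchyme beneath holds fibronectin, fibrillin microfibrils, fibulins, versican and small leucine-rich proteoglycans such as decorin and biglycan. At this stage the gonadal epithelium thickens over the mesonephros and some of its cells leave it through the basement membrane to join the gonad, so both kinds of matrix lie close to the cells that were cut out.

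Several whole-array facts bear on every value below. Xist, the RNA of the inactive X chromosome, was at 69.9 or less in every wild-type pool and at 9320 or more in every KO pool, and 3 Y-linked genes were lower in the KO pools, so the sex of the fetuses and the genotype cannot be told apart. Egfl6 and Bgn lie on the X chromosome. The Emx2 probe set gave 1302, 2120 and 1727 for wild-type and 1678, 1480 and 1746 for KO pools, and its place relative to the deleted part is unstated in the sources used here, so it does not check the labels. Of 11 tested markers of urogenital mesenchyme 6 were higher and 0 lower in KO pools, and the summed intensity of the 12 listed, measured at 1 probe set each, was 13450 to 14811 in wild-type and 18803 to 19701 in KO pools. Of 8 tested endothelial markers 4 were higher and 0 lower, their 10 listed genes summing to 919 to 1207 and 1563 to 1830, with Pecam1 and Tie1 under the dim limit of 26.4 on every array. Among the 4 higher, Emcn was under that limit in every wild-type pool. Of 9 gonadal epithelium markers 0 were higher and 2 lower (Nr5a1 and Krt8), with sums of 18207 to 20579 and 16071 to 17879. The 7 that did not pass went both ways. Their log2 fold changes were 0.62 (Gata4, adjusted p = 0.0501), 0.12 (Upk3b), 0.02 (Lhx9), −0.05 (Emx2), −0.38 (Krt18), −0.40 (Wt1) and −0.51 (Cdh1). The groups of Gata4 and Wt1 did not overlap. Of 5 tested blood markers 0 passed, and of 2 tested neural crest markers 1 was lower (Dct). Of all genes, read at 1 probe set each, 2.93% were higher and 2.48% lower. The part of these cell type and sex differences in the matrix results was not tested, and in such bulk samples fewer cells of a type and less RNA per cell cannot be told apart.

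Matrix genes that passed the test were mostly higher in the KO pools. A called probe set that was higher stood for 11 of the genes (Lama2, Frem1, Npnt, Egfl6, Fbln2, Fbn2, Fn1, Postn, Vcan, Dcn and Bgn), and Ecm1 alone was lower. By probe set, 16 of 63 were higher (25.4%), against 2.75% of all tested probe sets, and 1 was lower (1.59%), against 1.93%, the background in either direction being 4.68%. By gene, read at the brightest probe set, 10 of 35 were higher (28.6%) and 1 lower (2.86%), against 2.93% and 2.48% of all 12315 genes (5.41% in either direction). The median log2 fold change of the 35 genes was 0.20, and that of all genes was −0.01. The values of the groups did not overlap in 28 of the 63 probe sets (44.4%, against 22% of all tested), 21 of them higher in KO (33.3%, against 12% of all tested) and 7 lower (11.1%, against 10%). These counts depended on single pools: 11 to 15 probe sets were higher with each pool left out in turn, the lowest being without KO replicate 1, and 3 were lower without wild-type replicate 3. With no filter on dim probe sets 5 member probe sets were higher, and without the intensity trend in the variance 8 were.

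**Figure D1:**
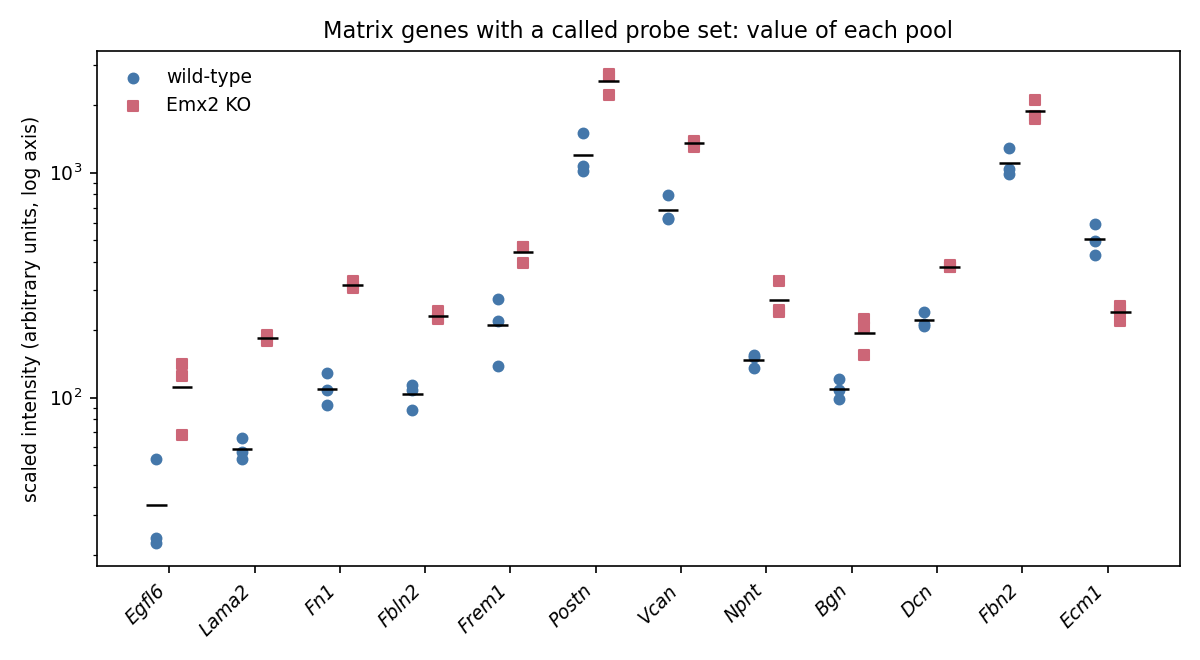
Scaled intensity (log axis, arbitrary units) of the 12 matrix genes with a called probe set, each at its probe set of smallest p, in 3 wild-type pools (circles) and 3 Emx2 KO pools (squares), with a line at each mean. The KO values lie above all wild-type values in 11 genes and below them in Ecm1, and levels are not comparable between genes.

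The upstream sequences of Lama2, Fbln2 and Vcan, which were higher, and of Ecm1, which was lower, are shown as examples, so that a reader can see what stands before their starts. They are the 250 bases before the annotated start, from RefSeq on build GRCm38.p6, written 5′ to 3′ on the gene's strand. Capitals mark matches on either strand to any of 5 short motifs. These were the TATA box (TATAAA), the CCAAT box spelled by its name, the GC box bound by Sp1 (GGGCGG), the E-box of basic helix-loop-helix factors such as Twist1 (CANNTG) and a homeodomain core (TAATTA).
Lama2, chr10:27616943-27617192, minus strand: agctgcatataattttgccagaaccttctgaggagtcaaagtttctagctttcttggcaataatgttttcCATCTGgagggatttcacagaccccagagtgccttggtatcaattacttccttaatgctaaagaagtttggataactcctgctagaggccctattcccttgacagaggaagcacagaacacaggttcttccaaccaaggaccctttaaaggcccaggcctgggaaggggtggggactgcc
Fbln2, chr6:91212514-91212763, plus strand: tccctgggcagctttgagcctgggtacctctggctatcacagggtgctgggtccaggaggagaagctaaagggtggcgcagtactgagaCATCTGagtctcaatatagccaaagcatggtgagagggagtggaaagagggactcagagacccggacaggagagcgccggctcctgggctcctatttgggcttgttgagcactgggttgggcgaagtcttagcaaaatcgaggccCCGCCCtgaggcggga
Vcan, chr13:89742513-89742762, minus strand: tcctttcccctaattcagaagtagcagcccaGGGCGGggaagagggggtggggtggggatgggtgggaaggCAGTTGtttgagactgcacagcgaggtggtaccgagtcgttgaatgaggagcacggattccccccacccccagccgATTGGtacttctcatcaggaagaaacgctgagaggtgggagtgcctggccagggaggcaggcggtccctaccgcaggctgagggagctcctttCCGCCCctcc
Ecm1, chr3:95739570-95739819, minus strand: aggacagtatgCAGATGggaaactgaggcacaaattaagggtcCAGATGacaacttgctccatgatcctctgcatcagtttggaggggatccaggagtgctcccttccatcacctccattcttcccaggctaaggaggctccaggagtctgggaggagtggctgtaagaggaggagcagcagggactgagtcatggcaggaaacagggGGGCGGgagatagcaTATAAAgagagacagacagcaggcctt

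In this window Lama2 held 1 E-box and none of the other motifs. Fbln2 held 1 E-box and 1 GC box, and Vcan 1 E-box, 2 GC boxes and 1 CCAAT. Ecm1, the gene that was lower, held 2 E-boxes, a GC box and a TATAAA match that begins 27 bases before the start. Such a TATA match stood in 12.4% of all 32851 windows of this length. An E-box stood in 66.2% of all windows, a GC box in 32.7%, CCAAT in 33.8% and TAATTA in 4.84%. Among 11 windows of 8 called-higher genes 8 held an E-box (72.7%) and 0 held TAATTA, against 17 (73.9%) and 1 (4.35%) of the 23 windows of 17 other members. A GC box stood in 45.5% against 56.5% of these windows, CCAAT in 18.2% against 34.8% and TATAAA in 9.09% against 17.4%. The called-higher genes Fn1, Dcn and Fbn2 had no window. A match is a description of these letters only.

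Of the tested laminin chains, only Lama2 passed. Lama2 encodes α2, the chain of laminins known from muscle and peripheral nerve. It read 53.2, 57.3 and 66.3 for wild-type and 189, 178 and 182 for KO pools, 3.12-fold higher (95% interval 2.33 to 4.17; log2 fold change 1.64, SE 0.19, adjusted p = 0.000337). The KO values were close together and far above every wild-type value, and the call held with each pool left out. Of 3 tested muscle markers 1 was higher, Tnnt2, which read 88.9, 136 and 107 against 391, 381 and 343. The other tested ones, Actc1 (−0.02, adjusted p = 0.98) and Des (0.21, adjusted p = 0.63), did not pass. The listed genes summed to 504 to 620 in wild-type against 791 to 928 in KO pools, with Myog, Myod1 and Myh3 under the dim limit. Most of the change in the sum was at Tnnt2, its mean being 110 in wild-type and 371 in KO pools. The means were 197 and 187 for Actc1 and 199 and 231 for Des. The part of these markers in the Lama2 value was not tested. Of the 8 laminin genes tested, 1 rose, 0 fell and 7 did not pass, and their median log2 fold change was −0.08. Of all genes 2.93% were higher and 2.48% lower.

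The chains of laminin-111, the first laminin of embryonic basement membranes, are α1, β1 and γ1. Lama1 (α1) read 541, 604 and 346 for wild-type and 308, 346 and 319.9 for KO pools. The lowest wild-type value barely exceeded the highest KO value, and the difference did not pass (−0.58, SE 0.19, adjusted p = 0.117). It passed when wild-type replicate 3 was omitted, the lowest of its group (−0.82, adjusted p = 0.00684). Lamb1 (β1) at its brightest probe set gave 3118, 3505 and 3799 against 3806, 3203 and 4067. These overlapped, with a 95% interval of 0.905 to 1.24 for the KO over wild-type ratio (adjusted p = 0.753). Its other 3 tested probe sets did not pass either. Lamc1 (γ1) read 189, 206 and 209 for wild-type and 177, 173 and 163 for KO pools, without overlap, but did not pass (−0.24, SE 0.16, adjusted p = 0.499).

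The remaining laminin chains gave no call. Lama5, the α chain that succeeds α1 in many maturing epithelia, read 209, 205 and 198 in wild-type pools, with KO values of 127, 173 and 158 (−0.43, SE 0.17, adjusted p = 0.215). Its groups did not overlap there, but they did at a dimmer probe set (−0.17, adjusted p = 0.734). Lama4, a chain of endothelial and mesenchymal basement membranes, gave 167, 148 and 152 against 226, 184 and 137, with the lowest value of all in a KO pool (0.20, SE 0.20, adjusted p = 0.688). Lamb2 overlapped as well (−0.24, adjusted p = 0.598). Lamc3, a γ chain, read 48.4, 31.0 and 21.3 for wild-type and 62.5, 60.3 and 59.6 for KO pools. Its groups did not overlap, the wild-type values spread widely, and it did not pass (0.94, SE 0.32, adjusted p = 0.132). Lama3 and Lamb3, chains of the laminin of stratified epithelia, were not tested, and no value of these or of Thbs1 exceeded 32.7.

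None of the 5 genes whose products bind laminin and link it to other partners passed the test. The log2 fold changes at their brightest probe sets lay between −0.26 and 0.15. Nid1, a nidogen that bridges laminin and type IV collagen, at its brightest probe set read 1680, 1212 and 1705 for wild-type and 1519, 1432 and 1450 for KO pools, all KO values inside the wild-type range (95% interval of the ratio 0.798 to 1.18, adjusted p = 0.901). Nid2 gave 364, 373 and 418 against 423, 403 and 420.1, an interval of 0.888 to 1.31 (adjusted p = 0.736). The other 2 tested Nid1 probe sets did not pass either, with intervals of the ratio of 0.970 to 1.94 and 0.448 to 1.39.

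Hspg2 encodes perlecan, a large heparan sulfate proteoglycan. It read 253, 465 and 325 for wild-type and 266, 272 and 326 for KO pools, with overlap (−0.23, SE 0.20, adjusted p = 0.631). A dimmer Hspg2 probe set, below the filter and so untested, read 40.5, 48.7 and 25.9 against KO values of at most 16.2. Agrn, which encodes the proteoglycan agrin, gave 833, 871 and 521 against 767, 853 and 796, the wild-type group holding both the highest and the lowest value (0.15, SE 0.17, adjusted p = 0.722). Dag1 encodes dystroglycan, the laminin receptor outside the integrin family. It read 3499, 3357 and 2984 in wild-type pools, with KO values of 2829, 2795 and 2574. The groups did not overlap, and the difference was small and did not pass (−0.26, SE 0.09, adjusted p = 0.142), except without wild-type replicate 3 (−0.33, adjusted p = 0.041). The log2 fold changes at the other 3 Dag1 probe sets were −0.32, −0.15 and −0.11.

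**Figure D2:**
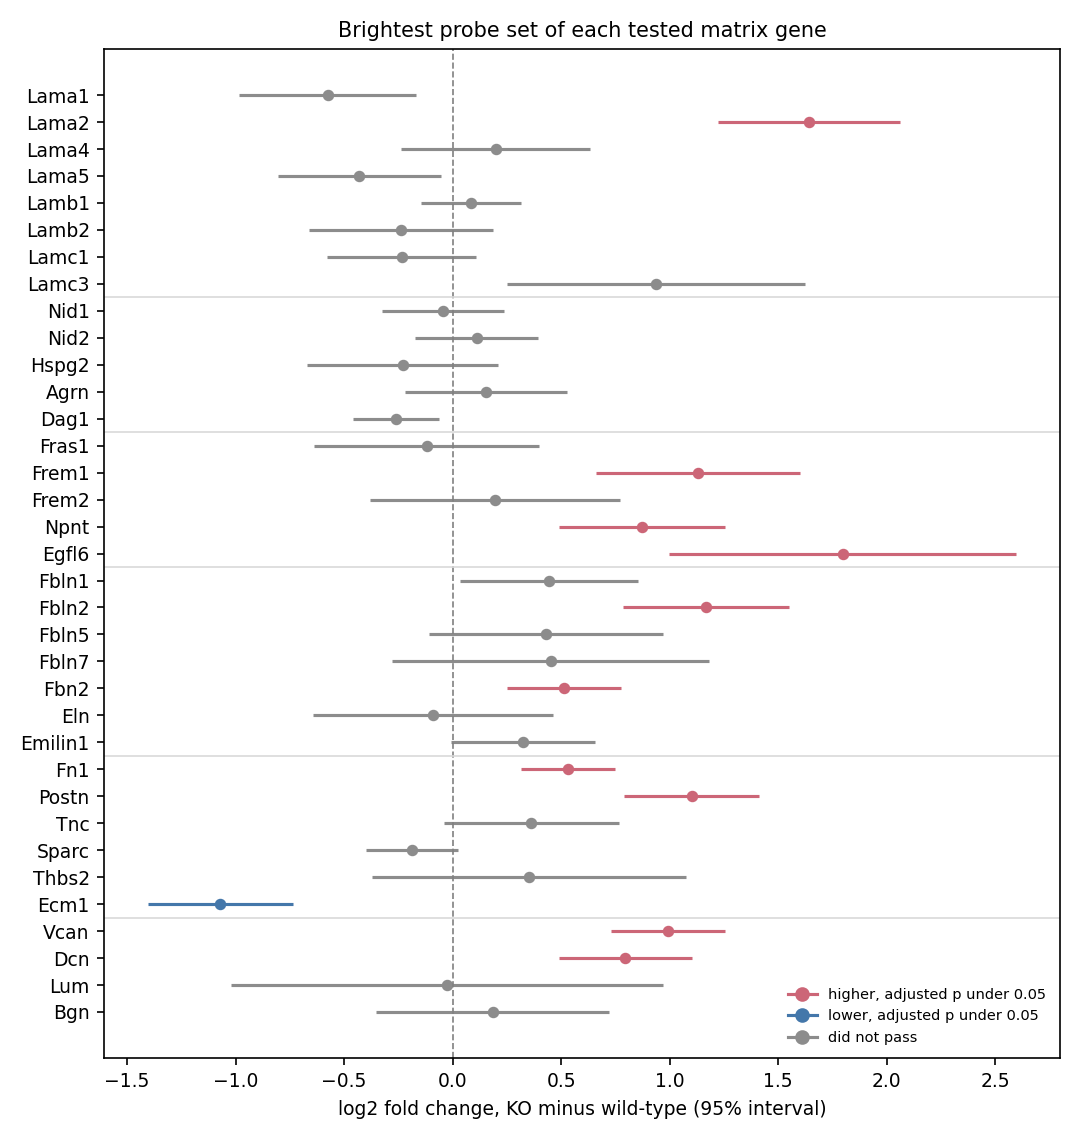
Log2 fold change (KO minus wild-type; points) with its 95% interval (lines) at the brightest tested probe set of 35 matrix genes, grouped from top to bottom as laminin chains, laminin partners, Fraser complex and nephronectin family, fibulins and elastic fibre proteins, fibronectin and matricellular proteins, and proteoglycans. Coloured genes passed an adjusted p of 0.05: 10 lie to the right of 0 and Ecm1 to the left. Bgn is grey here because its brightest probe set by mean log2 did not pass, though a called one was nearly level with it.

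Of the 5 genes of the Fraser complex and the nephronectin family, 3 were higher (2.93% of all genes were) and 0 lower. Frem1, Frem2 and Fras1 form the complex whose loss causes Fraser-type blistering of embryonic epithelia. Frem1, the secreted member, read 219, 138 and 273 for wild-type and 467, 469 and 395 for KO pools, 2.19-fold higher with a log2 fold change of 1.13 (SE 0.22, adjusted p = 0.0088). Every KO value was well above every wild-type value. Fras1, a membrane-anchored partner, gave 1070, 680.2 and 1551 against 993, 763 and 1161 with overlap (−0.12, SE 0.24, adjusted p = 0.856). A second, less variable Fras1 probe set gave 0.14 (adjusted p = 0.648), and Frem2 gave 0.20 (adjusted p = 0.776).

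Npnt and Egfl6 encode related secreted proteins with EGF-like repeats, and nephronectin, the product of Npnt, is the ligand of integrin α8β1 in the embryonic kidney. At its brightest probe set Npnt read 151, 135 and 154 in wild-type pools, with KO values of 329.8, 245 and 239.9 (1.83-fold; 0.87, SE 0.18, adjusted p = 0.0118). The groups were well apart, KO replicate 1 being highest, and without that pool the call was lost (0.72, adjusted p = 0.0668). The other 3 tested Npnt probe sets did not pass, with log2 fold changes of 0.60, 0.21 and 0.53. Egfl6 read 22.6, 53.4 and 23.7 for wild-type and 125, 68.1 and 141 for KO pools (3.47-fold; 1.80, SE 0.37, adjusted p = 0.0131). Replicate 2 of wild-type and replicate 2 of KO lay closest to each other, and Egfl6, an X-linked gene, passed in 3 of the 6 fits with 1 pool left out. It was lost without wild-type replicate 1 (1.58, adjusted p = 0.0672), KO replicate 1 (1.68, adjusted p = 0.0613) and KO replicate 3 (1.59, adjusted p = 0.0796).

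Itga8, the α chain of the nephronectin receptor, went the other way from Npnt. It read 1388, 1487 and 1117 in wild-type pools, with KO values of 390.5, 496 and 500.3. The groups were far apart, and Itga8 fell by 1.52 on the log2 scale (SE 0.14, adjusted p = 6.95e-05). The call held with each pool left out. Of 3 tested nephric duct and tubule markers 2 were lower (Pax8 and Lhx1), and of all genes 2.48% were. The KO values of Lhx1 were all under the dim limit. The listed genes summed to 258 to 301 in wild-type against 89.9 to 139.9 in KO pools. The part of these markers in the Itga8 and Npnt values was not tested.

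Of the fibulins, fibrillins and elastic fibre proteins, 2 of 7 tested genes were higher and 0 lower (2.93% and 2.48% of all genes were). Fbln2, a fibulin that binds fibronectin, laminins and fibrillin, read 114, 108 and 87.8 for wild-type and 225, 242 and 225 for KO pools, 2.25-fold higher with a log2 fold change of 1.17 (SE 0.18, adjusted p = 0.00196). No pool was intermediate. Fbn2, the fibrillin that predominates in embryonic microfibrils, had 2 probe sets and both passed. The brighter gave 1411, 1308 and 1705 against 2304, 1839 and 2162 (0.51, SE 0.12, adjusted p = 0.0286), and the other 1286, 989 and 1035 against 1729, 1783 and 2110 (0.77, SE 0.12, adjusted p = 0.00297). The groups were separate at both. With each pool left out the second passed in 6 of 6 fits and the brighter in 2, being lost without wild-type replicates 1 and 2 (adjusted p = 0.115 and 0.0933) and KO replicates 1 and 3 (adjusted p = 0.132 and 0.114).

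The other fibulins lay above 0 at their brightest probe sets but did not pass. Fbln1 read 519, 813 and 512 in wild-type pools, with KO values of 837, 657 and 987 (0.44, SE 0.19, adjusted p = 0.247). Wild-type replicate 2 overlapped the KO range, and without it Fbln1 passed (0.66, adjusted p = 0.0474). Fbln5, which guides elastin onto microfibrils, gave 47.4, 51.6 and 55.6 against 56.4, 86.1 and 68.5 (0.43, adjusted p = 0.421), and Fbln7 gave 0.45 (adjusted p = 0.555). Emilin1, a glycoprotein of elastic fibres, gave 445, 531 and 366 against 576, 589.6 and 499 (0.32, SE 0.15, adjusted p = 0.301). Eln, the gene of elastin itself, read 46.2, 47.8 and 50.0 against 38.9, 47.9 and 49.1, without separation (adjusted p = 0.901).

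Fibronectin and the matricellular proteins, which sit in the matrix and modulate how cells adhere to it, went both ways. Of 6 tested genes, Fn1 and Postn were higher, Ecm1 was lower and 3 did not pass (2.93% of all genes were higher and 2.48% lower). Postn, which encodes periostin, read 1507, 1021 and 1076 for wild-type and 2695, 2217 and 2741 for KO pools, 2.15-fold higher with a log2 fold change of 1.10 (SE 0.14, adjusted p = 0.000674). The lowest KO pool was well above the highest wild-type pool. Ecm1 encodes extracellular matrix protein 1, which binds perlecan and fibulin-1. It read 498, 590.4 and 428 for wild-type and 219, 244 and 254 for KO pools, and it fell by 1.07 on the log2 scale (SE 0.15, adjusted p = 0.0014). All wild-type values were well above all KO values, and the call held with each pool left out.

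Fn1, the gene of fibronectin, was higher at both of its probe sets, with estimates of 1.45-fold and 2.92-fold. The brighter read 2001, 1991 and 2175 for wild-type and 3293, 2652 and 2996 for KO pools (1.45-fold; 0.53, SE 0.10, adjusted p = 0.00746). The dimmer read 108, 92.5 and 128 against 308, 331 and 315 (2.92-fold; 1.55, SE 0.17, adjusted p = 0.000223). Within each array, the log2 ratio of the dimmer to the brighter was −4.21, −4.43 and −4.09 against −3.42, −3.00 and −3.25, and the groups did not overlap. The ratio differed by 1.02 on the log2 scale (exact two-sided permutation test, p = 0.1, the smallest that 3 pools against 3 can give; 0.467 adjusted over the 14 pairs of probe sets compared in 5 genes). The stretch of transcript that each probe set reads was not analysed here.

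Tenascin, osteonectin and thrombospondin genes gave no call. Tnc, the gene of tenascin C, gave 141, 123 and 123 against 156, 199.9 and 146 without overlap (0.36, SE 0.19, adjusted p = 0.353). Sparc, which encodes osteonectin, was measured with high precision: a probe set that read 3380, 3245 and 3123 against 3157, 3087 and 3155 had a 95% interval of 0.856 to 1.09 for the ratio (adjusted p = 0.809), and the brightest and the dimmest gave −0.19 and −0.54 (adjusted p = 0.364 and 0.45). Thbs2 gave 38.8, 76.3 and 86.1 against 74.4, 119 and 59.8 (adjusted p = 0.664).

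Among the proteoglycans of the interstitial matrix, Vcan, Dcn and Bgn had called probe sets, all higher. Read at the brightest probe set, 2 of the 4 tested genes were higher and 0 lower, and of all genes 2.93% were higher and 2.48% lower. Of the 11 tested mesenchyme markers, Pdgfrb, Twist1, Prrx1, Tcf21, Osr1 and Col3a1 were higher in the same pools. The 5 that did not pass had log2 fold changes of 0.69 (Foxd1), 0.54 (Col1a1), 0.33 (Col1a2), −0.11 (Pdgfra) and −0.77 (Foxf1, whose groups did not overlap). Vcan encodes versican, a large hyaluronan-binding proteoglycan of loose embryonic mesenchyme, and all 3 of its tested probe sets passed. The brightest read 798, 625 and 627 for wild-type and 1380, 1365 and 1304 for KO pools, 1.99-fold higher with a log2 fold change of 0.99 (SE 0.12, adjusted p = 0.000453). The others read 195, 159 and 139.8 against 339, 329 and 234 (0.86, adjusted p = 0.0209) and 95.4, 108 and 93.3 against 274, 231 and 226 (1.30, adjusted p = 0.000846). The groups were separate at all 3, and the brightest and the dimmest passed with each pool left out. The middle one failed to pass when wild-type replicate 2 was left out (adjusted p = 0.0542), and likewise for KO replicates 1 and 2 (adjusted p = 0.0989 and 0.0938). A further 5 Vcan probe sets were too dim to test.

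Dcn, the gene of decorin, a small proteoglycan that binds collagen fibrils, read 241, 213 and 208 in wild-type pools, with KO values of 379, 379 and 389 (1.74-fold; 0.80, SE 0.14, adjusted p = 0.00545). The KO values were nearly equal and well above the wild-type ones, and the call held in every fit with 1 pool left out. Lum encodes lumican, a relative of decorin, and is the neighbour of Dcn in the genome. It gave 101, 32.7 and 62.3 against 35.9, 120.5 and 45.1, with the lowest value in a wild-type pool and the highest in a KO pool. The 95% interval of the ratio ran from 0.492 to 1.96 (adjusted p = 0.985).

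Bgn, the X-linked gene of biglycan, did not get the same call at its 3 probe sets. Those with 127, 194 and 127 against 233, 274 and 242 (0.77, SE 0.19, adjusted p = 0.0407) and with 99.0, 121 and 108 against 154, 206 and 223 (0.82, SE 0.20, adjusted p = 0.0302) passed. The third read 130.5, 248 and 179 against 277, 178 and 172 and overlapped (0.18, SE 0.25, adjusted p = 0.775). It was nearly level with the first, and stood for Bgn in counts by gene as the brightest by mean log2, though not by mean intensity. Within each array, the log2 ratios of the first and of the second to the third were compared between the groups. An exact two-sided permutation test gave p = 0.2 and 0.3 (both 0.525 adjusted over 14 pairs), 0.1 being the smallest possible. With 1 pool left out the first passed in 1 of 6 fits, without wild-type replicate 2, and the second in 3 of 6, its call being lost without wild-type replicate 1 and KO replicates 2 and 3 (adjusted p = 0.115, 0.119 and 0.148). With values as deposited neither passed (adjusted p = 0.0639 and 0.0554).

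**Figure D3:**
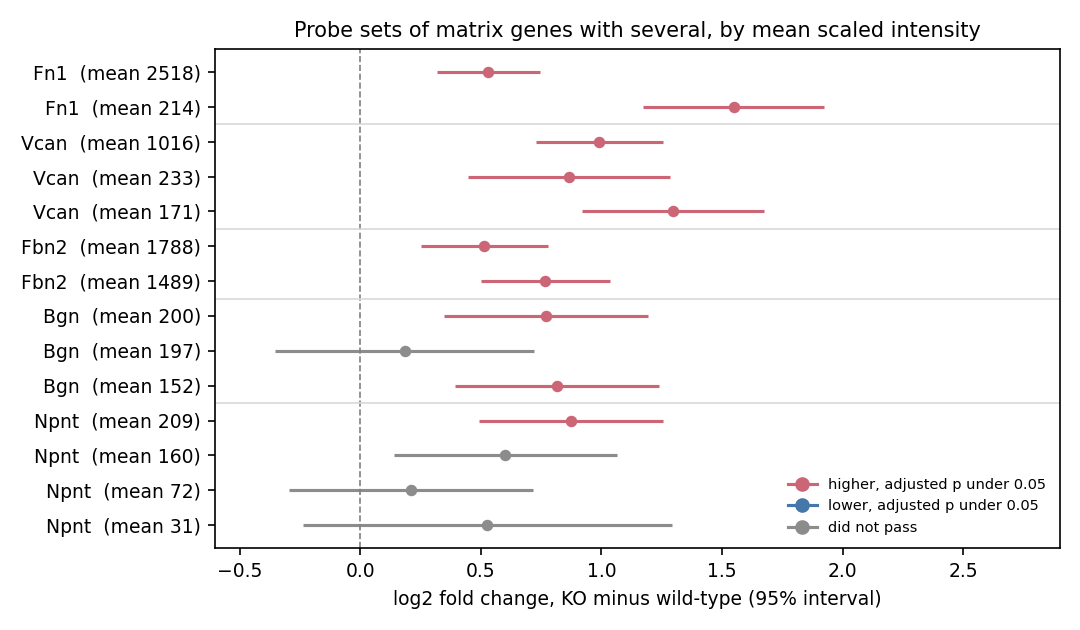
Log2 fold change (KO minus wild-type; points) with its 95% interval (lines) at every tested probe set of the 5 genes with a called probe set and more than 1 tested, labelled with the mean scaled intensity of the 6 arrays. All probe sets of Fn1, Vcan and Fbn2 passed, whereas 2 of 3 for Bgn and 1 of 4 for Npnt did.

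Genes that work with these proteins were counted from 4 further lists. None of 6 tested basement membrane collagens passed, those of smallest p being Col4a1 (4009, 3872 and 3573 in wild-type, 3122, 3385 and 2765 in KO pools; −0.31, SE 0.09, adjusted p = 0.0917) and Col18a1 (−0.35, SE 0.11, adjusted p = 0.116). The groups of Col4a1 did not overlap, and both genes passed without wild-type replicate 3 (−0.36 and −0.43, adjusted p = 0.0453 and 0.0446). None of 6 tested genes that glycosylate dystroglycan passed, the smallest p being that of Pomk (−0.09, SE 0.13, adjusted p = 0.802), followed by B4gat1 (−0.11, SE 0.19, adjusted p = 0.841).

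Of 23 tested matrix receptors, 4 were higher and 1, Itga8, was lower, and of all genes 2.93% were higher and 2.48% lower. Itga4, an integrin chain that binds fibronectin, read 55.7, 47.6 and 70.0 for wild-type and 146, 123 and 132 for KO pools, a log2 fold change of 1.22 (SE 0.22, adjusted p = 0.00594). Itga5, the α chain of the main fibronectin receptor, gave 57.2, 30.9 and 47.0 against 83.1, 99.0 and 91.5 (1.06, SE 0.27, adjusted p = 0.0406). The groups were separate in both. Itga4 passed with each pool left out, at this probe set but not at its 2 dimmer ones. Itga5 passed in 2 of 6 such fits, its log2 fold change being 0.81 when wild-type replicate 2 was omitted and 1.12, 1.00 and 1.06 when KO replicates 1, 2 and 3 were, each short of the threshold (adjusted p = 0.111, 0.0909, 0.144 and 0.13), and it did not pass at its other tested probe sets.

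The discoidin domain receptors, kinases that bind collagen, were higher at their brightest probe sets. Ddr1 gave 1347, 814 and 1058 in wild-type pools, with KO values of 2089, 2757 and 1823 (1.06, SE 0.18, adjusted p = 0.00386). Ddr2 gave 102, 86.9 and 125 against 231, 169 and 239 (1.03, SE 0.21, adjusted p = 0.0116). No KO value reached down into the wild-type range. The other Ddr1 and Ddr2 probe sets did not pass, and the Ddr2 call was lost without KO replicate 1 (0.96, adjusted p = 0.057) and KO replicate 3 (0.93, adjusted p = 0.0701). The number of receptors called, 5, was 3 without KO replicate 3.

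Of 12 tested elastic fibre and crosslinking genes, 3 were higher and 1 lower, and of all genes 2.93% were higher and 2.48% lower. Lox, the lysyl oxidase that crosslinks collagen and elastin, read 77.5, 69.7 and 67.1 for wild-type and 174, 196 and 224 for KO pools (2.76-fold; 1.46, SE 0.19, adjusted p = 0.00066). Efemp1, a fibulin relative also named fibulin-3, read 238, 220.2 and 157 against 451, 401 and 669.8 (1.29, SE 0.21, adjusted p = 0.00314). Both were separate and passed with each pool left out. Mfap4, a microfibril-associated glycoprotein, gave 74.6, 100.2 and 73.6 against 117, 181 and 208 (1.00, SE 0.24, adjusted p = 0.0314). It passed in 2 of 6 such fits, being lost without wild-type replicates 1 and 3 (adjusted p = 0.118 and 0.0609) and KO replicates 2 and 3 (adjusted p = 0.123 and 0.156). Tgm2, a transglutaminase that crosslinks fibronectin and other matrix proteins, read 1550, 1482 and 1484 against 883, 1121 and 1041, and it fell by 0.58 on the log2 scale (SE 0.11, adjusted p = 0.0097). With values as deposited it did not pass (−0.48, adjusted p = 0.417).

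**Figure D4:**
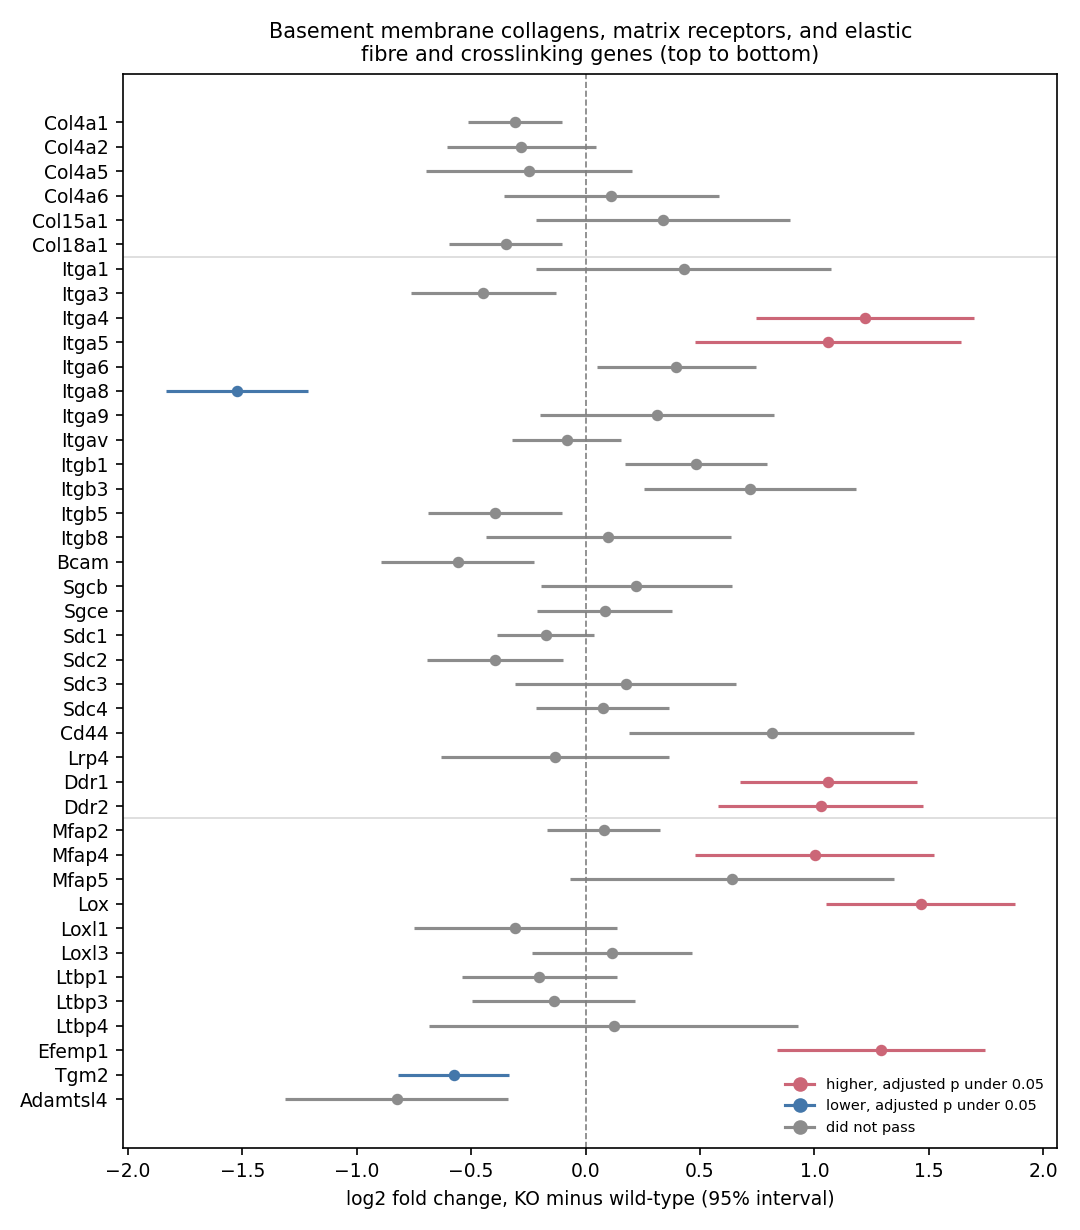
Log2 fold change (KO minus wild-type; points) with its 95% interval (lines) at the brightest tested probe set of basement membrane collagens, matrix receptors, and elastic fibre and crosslinking genes. Coloured genes passed an adjusted p of 0.05: Itga4, Itga5, Ddr1, Ddr2, Mfap4, Lox and Efemp1 lie to the right of 0, Itga8 and Tgm2 to the left, and no basement membrane collagen is coloured.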

How the data were processed

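Gene expression was measured on 6 1-channel arrays, 1 per pool, from 15 ng of total RNA amplified in 2 cycles (2 rounds) and biotin-labelled, per the labels' protocols. The authors deposited 1 linear intensity per probe set and array; the submitters' processing notes list GCOS 1.2, and the algorithm and scaling used are not given in the sources used here. Repeated amplification favours the 3′ ends of transcripts, which can dim probe sets placed upstream.

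The 2% trimmed means of the deposited arrays differed by up to 1.47 times, so each array was scaled to 309.2. Values were then raised to a floor, the 20th percentile (7.99), before log2. Left out were 64 controls and the dimmest 40% of probe sets by mean (below 26.4, the dim limit). The groups were fitted in limma 3.58.1 under R 4.3.3 (lmFit, eBayes with an intensity trend, two-sided, Benjamini-Hochberg over all tested probe sets). The number of arrays limits the precision, and the median SE was 0.188. Replicates correlated with r of 0.977 to 0.983 within groups. The procedure was tested on simulated data.

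Gene symbols come from GEO's platform annotation; all 38 measured members were found among RefSeq genes (GRCm38.p6). By rule, every member was named, with each array's value for called members, laminin chains and their partners, and of each further list the called genes, up to 6, or 2 by p. The members, lists and tests were chosen with earlier results of these data known. The probe set of highest mean log2, called the brightest, stood for a gene in counts by gene. The alternatives were other scalings, floors, filters and variance models, the replicate number as a block, and each pool left out; values as deposited and the omission of X-linked members were added after seeing the data.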

Additional observations from a re-analysis of the deposited data

Results flagged for a closer look

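A second Fbln2 probe set, left out of the test as too dim over all arrays, read 13.4, 8.82 and 1.74 for wild-type and 57.1, 47.7 and 31.7 for KO pools, a KO mean of 45.5 against 7.99. It drew attention because every KO value exceeded every wild-type value, with a KO mean above the dim limit, in data that the comparisons did not use. Of the 20 member probe sets left out as dim, 7 had groups that did not overlap, 4 higher in KO pools (this one, 1 of Thbs1 and 2 of Vcan) and 3 lower (1 each of Lama3, Hspg2 and Vcan). Among those 4, only the Fbln2 probe set had a KO mean above the dim limit. The groups did not overlap in 22% of all tested probe sets. That share was not counted among all probe sets left out as dim, so the count of 7 has no like share beside it. The Fbln2 probe set was left out because of the filter on its mean log2 over both groups, and no test is given for it.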

How the results depend on the processing

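With no dim probe sets left out 5 member probe sets were higher and 0 lower, 3 member genes were called, and 0 matrix receptors and 1 elastic fibre or crosslinking gene. Without an intensity trend the counts were 8 higher, 7 member genes, 2 receptors and 2 elastic fibre genes. The cause of these changes was not tested. With the lowest 60% left out 3 receptors were called, the called probe sets of Itga4 and Itga5 being among those left out. With each pool left out, member probe sets higher ran from 11 to 15 and lower from 1 to 3, member genes called from 8 to 13, receptors from 3 to 7, elastic fibre genes from 3 to 4 and basement membrane collagens from 0 to 2. No setting turned the sign of any of the 26 called probe sets followed. Lama2, the dimmer Fn1, the dimmest Vcan, Dcn and Lox passed in every setting run. Ecm1, Postn, Fbln2, the brightest Vcan, Itga4 and Itga8 failed to pass only with no filter, though Itga4 was not tested with the lowest 60% left out. With values as deposited 5 calls followed were lost: the brighter Fn1 and Fbn2 probe sets (adjusted p = 0.094 and 0.146), both Bgn probe sets (0.0639 and 0.0554) and Tgm2 (0.417). Signs turned in probe sets that did not pass. With values as deposited, Eln gave 0.0021, Lum 0.066, Nid1 0.047 and Pomk 0.00484. With each pool left out, Agrn ran from −0.0826 to 0.29, the brightest Bgn probe set from −0.0455 to 0.42, Eln from −0.15 to 0.0151, Fras1 from −0.43 to 0.17, Frem2 from −0.0483 to 0.39, Hspg2 from −0.44 to 0.0028, Lum from −0.55 to 0.36, Nid1 from −0.21 to 0.04 and Thbs2 from −0.0042 to 0.57. With the replicate number as a block, 16 member probe sets were higher, 1 lower and 11 member genes called, and Itga5 did not pass (adjusted p = 0.0663); same-numbered pools share only a number, their deviations from the group means correlating at −0.065, 0.040 and −0.051. Leaving out the X-linked Egfl6 and Bgn left 13 probe sets higher. Dim probe sets limit what can be read: a fold is compressed near the floor.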

Other observations

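Ecm1 and Adamtsl4 are neighbours in the RefSeq gene order. Adamtsl4, an ADAMTS-like protein that binds fibrillin, was picked out after its values were seen. It read 94.4, 80.4 and 90.1 for wild-type and 55.6, 44.9 and 49.1 for KO pools, without overlap, and missed the threshold (log2 fold change −0.83, SE 0.23, adjusted p = 0.0581 in limma's test).

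Among the receptors that did not pass, Bcam, the laminin α5 receptor of the Lutheran blood group, had a log2 fold change of −0.56 (SE 0.15, adjusted p = 0.061). Itgb1, the β chain shared by most laminin and fibronectin receptors, read 344 ± 24.9 in wild-type pools, with KO values of 482 ± 62.7 (SD, n = 3 each), a log2 difference of 0.48 (SE 0.14, adjusted p = 0.08 in limma's test). Both were chosen after their values were seen. At a second Itgb1 probe set of similar brightness the groups overlapped (−0.08, SE 0.14, adjusted p = 0.832).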
